A study of Mus musculus with 8 samples.

Results

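Transcripts of A20, its binding partners and related deubiquitinases were counted by RNA sequencing of the ear epidermis of 8 mice, lifted off as sheets. The 10 genes were taken by name from the 51912 gene identifiers in the count tables: Tnfaip3, which encodes A20, the A20-binding genes Tnip1, Tnip2 and Tnip3, the complex members Tax1bp1, Itch and Rnf11, and the deubiquitinase genes Cyld, Otulin and Otud7b. All 10 were found and all 10 had enough counts to be tested. Both groups carried the A20F/F allele and received intraperitoneal tamoxifen (1 mg a day on 2 days) at 8 weeks of age, with tissue taken 7 days after the first injection. The 4 A20KIKO mice were Krt5-CreERT2+, so that a Cre recombinase activated by tamoxifen was made from the Krt5 promoter, which is active in basal keratinocytes. The 4 A20WT mice were Krt5-CreERT2- and carried no Cre, so the presence of the Cre and the deletion it induces cannot be told apart. Langerhans cells, T cells and melanocytes lie in the same sheet and are not Krt5-expressing cells. The libraries held 40451075 to 89624373 counts each, 1 library per mouse.

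A20 edits ubiquitin chains on signalling proteins: its OTU domain cleaves ubiquitin and its zinc fingers bind or transfer it, and both limit NF-kB signalling and cell death after TNF or Toll-like receptor engagement. The ABIN proteins, encoded by the Tnip genes, bind ubiquitin chains and A20 together. TAX1BP1, ITCH and RNF11 are described as an A20 ubiquitin-editing complex, whereas CYLD and OTULIN remove chains from the same receptor complexes on their own. Tnfaip3 is a well-known target of NF-kB, and its transcript is low in resting cells.

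Of the 10 genes, 3 were higher in the libraries labelled A20KIKO and 0 were lower, by edgeR's quasi-likelihood test at a Benjamini-Hochberg adjusted p under 0.05. These were Tnfaip3, Tnip1 and Tnip3. With a library left out, 6 of the 8 fits called fewer: 1 gene without A20KIKO mouse 1, and 2 genes without A20KIKO mouse 3 or without each of the A20WT mice in turn. In the same comparison 3.49% of all 16512 tested genes passed in either direction and 2.43% were higher. In the same 3 genes the 4 A20KIKO libraries lay entirely above the 4 A20WT libraries, and 10.6% of all tested genes had groups that did not overlap in either direction. The other 7 genes did not pass, with log2 changes (A20KIKO minus A20WT) from -0.18 to 0.09. The median log2 change over the 10 genes was 0.03, beside -0.01 over all tested genes.

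The 100 bases before the RefSeq transcription start are shown for the 3 risen genes, because each passed the test in the same direction and holds a match to the NF-kB consensus there. The fourth sequence, bases -200 to -101 of Cyld, is shown because this gene did not pass the test and also holds a match. All are 5′ to 3′ on the gene's own strand from RefSeq on GRCm38.p6, with capitals marking bases of a match on either strand. Those of Tnfaip3 are chr10:19015411-19015510 (minus strand), of Tnip1 chr11:54962941-54963040 (minus strand), of Tnip3 chr6:65590298-65590397 (plus strand) and of Cyld chr8:88696828-88696927 (plus strand). None of the 4 stretches overlaps a GENCODE M21 exon. Those of Tnfaip3 and Tnip3 lie inside the span of their gene, because another annotated transcript starts upstream. That of Tnip3 lies far inside, as the annotated gene runs from 65525313 to 65634040 on chromosome 6.
Tnfaip3: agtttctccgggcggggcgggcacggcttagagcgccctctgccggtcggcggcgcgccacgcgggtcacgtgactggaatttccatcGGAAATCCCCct
Tnip1: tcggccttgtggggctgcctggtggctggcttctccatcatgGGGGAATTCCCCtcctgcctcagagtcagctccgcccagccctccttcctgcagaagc
Tnip3: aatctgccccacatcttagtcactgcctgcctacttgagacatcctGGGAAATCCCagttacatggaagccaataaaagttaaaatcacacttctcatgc
Cyld: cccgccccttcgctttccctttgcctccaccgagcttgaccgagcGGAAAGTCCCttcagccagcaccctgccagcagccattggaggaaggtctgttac

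The match of Tnfaip3 spans bases -12 to -3 from the start, and a further match of this promoter lies at -125 to -116, outside the stretch shown. In Tnip1, 3 overlapping matches on the 2 strands cover bases -58 to -47, and the palindromic match of Tnip3 covers -54 to -45. In Cyld the match lies at -155 to -146. RefSeq promoters were matched for 7 of the 10 genes, with the 250 bases before and the 50 after each start searched on both strands. Besides the 4 genes above, an inner promoter of Tax1bp1 held a match after its start (bases 35 to 44), and Tnip2 and Otulin held none. The second, inner promoter of Tnfaip3 held none. The consensus was present in 4.51% of all 32851 promoters of the same length, and 5.14% of 27025 genes had at least 1 such promoter. A more fixed form of the NF-kB motif, GGGNNTTTCC, was not found in Tnip1 or Tnip3. Tnfaip3 and Cyld held 1 match each, on the same bases as a consensus match (-12 to -3 and -155 to -146), and 1.63% of all promoters held 1 or more. The presence of that form thus did not follow the calls. The interferon-response motif GAAANNGAAA was in none of the 7 genes and in 3.44% of all promoters. A match is a run of letters and was not measured as a binding site.

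Tnfaip3 (ENSMUSG00000019850, chromosome 10, 19000910 to 19015657, minus strand, GRCm38) had 90.9, 55.0, 64.0 and 86.2 CPM (normalised counts per 1000000) in A20KIKO mice 1 to 4. It had 13.5, 19.6, 17.7 and 15.4 CPM in A20WT mice 1 to 4. The lowest A20KIKO library was therefore well above the highest A20WT library, and mice 1 and 4 were the highest of their group. The means were 74.0 ± 17.3 and 16.5 ± 2.65 CPM (SD, n = 4 each), a 4.48-fold rise (log2 change 2.16, SE 0.18, 95% interval 1.77 to 2.56, edgeR adjusted p = 8.36e-05). By unadjusted p Tnfaip3 took place 10 of the 16512 tested genes, and 98.7% had a lower log2 change. Raw counts of Tnfaip3 were 992 to 1525 in the A20WT and 2610 to 7777 in the A20KIKO libraries. The rise goes against what the label A20KIKO names, but it does not check the deletion. Each library has 1 count for the whole gene, and the deleted exons are not given. Exons outside the deleted part may contribute to that count. Every direction below is therefore between libraries labelled A20KIKO and A20WT.

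**Figure D1:**
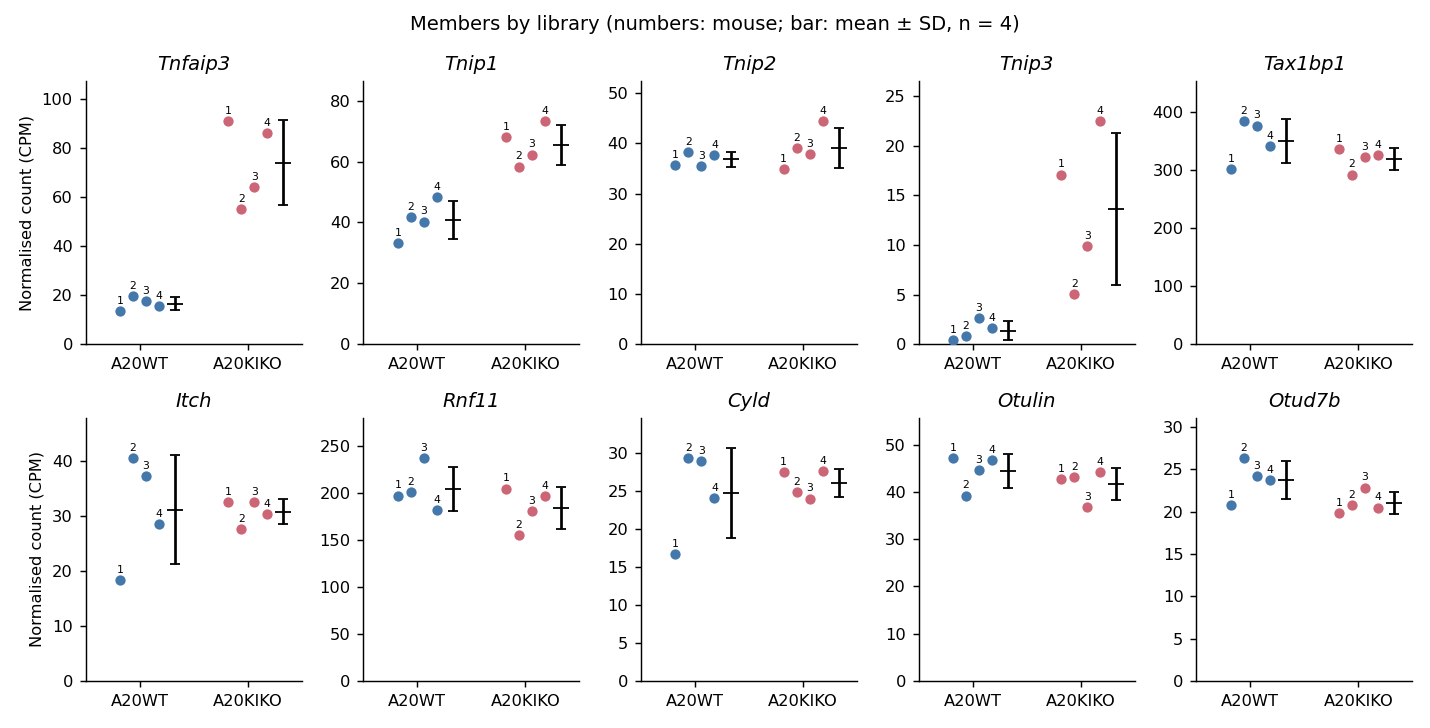
Normalised counts (CPM, linear axes from 0) of the 10 genes in each library, with the mouse number beside each point and the mean ± SD (n = 4) as a bar. The A20KIKO points lie above all A20WT points for Tnfaip3, Tnip1 and Tnip3, and the groups overlap for the other 7 genes.

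Among the ABIN genes, Tnip1 and Tnip3 rose and Tnip2 did not pass. Tnip1 encodes ABIN1, a broadly expressed partner that recruits A20 to ubiquitinated targets. It had 68.1, 58.3, 62.3 and 73.3 CPM in A20KIKO mice 1 to 4 and 33.1, 41.7, 40.3 and 48.3 CPM in A20WT mice 1 to 4. The groups did not overlap, but the gap between the lowest A20KIKO and the highest A20WT library was narrow. Tnip1 (ENSMUSG00000020400, chromosome 11) rose 1.60-fold, from 40.9 ± 6.25 to 65.5 ± 6.56 CPM (SD, n = 4 each, log2 change 0.68, SE 0.13, edgeR adjusted p = 0.0136). Its adjusted p was 0.0517 without A20KIKO mouse 1 and 0.0522 without A20WT mouse 3.

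Tnip3 encodes ABIN3, an inducible member of the family. It was the scarcest of the 10 genes in A20WT mice, with 0.449, 0.811, 2.62 and 1.60 CPM in mice 1 to 4 (39 to 226 raw counts). In A20KIKO mice 1 to 4 it had 17.1, 5.04, 9.93 and 22.5 CPM (291 to 1975 raw counts). The libraries of each group thus spread widely, with a coefficient of variation of 56.5% in the A20KIKO and 70.2% in the A20WT libraries, and yet the groups stayed apart. Tnip3 (ENSMUSG00000044162, chromosome 6) rose 9.91-fold, from 1.37 ± 0.962 to 13.6 ± 7.70 CPM (SD, n = 4 each, log2 change 3.31, SE 0.67, 95% interval 1.76 to 4.86, edgeR adjusted p = 0.0395). Its point estimate was the highest of the 10 genes and its interval the widest. Tnip3 lost its call when A20KIKO mouse 1 or 3, or else A20WT mouse 1, 2 or 4, was left out (adjusted p 0.0767 to 0.145), and had an adjusted p of 0.11 with no count filter.

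Tnip2 encodes ABIN2, which binds A20 and also stabilises the kinase TPL2. It had 34.9, 39.0, 37.8 and 44.4 CPM in A20KIKO mice 1 to 4 and 35.7, 38.3, 35.6 and 37.7 CPM in A20WT mice 1 to 4. The groups overlapped, and only A20KIKO mouse 4 stood above the A20WT range by more than a few CPM. The log2 change was 0.09 (95% interval -0.16 to 0.33, edgeR adjusted p = 0.799), so the interval reaches at most a 1.26-fold rise.

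None of the 3 genes of the described A20 complex passed. Tax1bp1, an autophagy receptor and ubiquitin-binding adaptor for A20, had 292 to 336 CPM in the A20KIKO and 302 to 384 CPM in the A20WT libraries. Its log2 change was -0.14 (95% interval -0.39 to 0.11, edgeR adjusted p = 0.648). A predicted antisense gene, Gm43966, covers 1.6% of its exon bases and held 130 counts over all libraries. Rnf11, a small RING-finger protein, had 155 to 205 and 182 to 237 CPM, a log2 change of -0.15 (95% interval -0.42 to 0.12, adjusted p = 0.637). Both genes had slightly lower means in A20KIKO libraries, and in neither did the difference exceed the spread between mice. Itch, a HECT-type ubiquitin ligase, had 27.7 to 32.6 CPM in A20KIKO and 18.4 to 40.6 CPM in A20WT libraries. Its log2 change of -0.02 had a 95% interval of -0.46 to 0.43 (adjusted p = 0.981).

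The deubiquitinases also overlapped between the groups. Cyld, the tumour suppressor mutated in cylindromatosis, which removes linear and other non-degradative chains, had 24.0 to 27.7 CPM in A20KIKO and 16.7 to 29.4 CPM in A20WT libraries. The log2 change was 0.07 (95% interval -0.29 to 0.44, edgeR adjusted p = 0.90). For Cyld and Itch, the low end of the A20WT range was mouse 1, which had the lowest level of its group in 7 of the 10 genes. Otulin, which cleaves only linear ubiquitin chains, had 36.8 to 44.2 and 39.2 to 47.2 CPM, with a log2 change of -0.09 (95% interval -0.34 to 0.16, adjusted p = 0.784). Otud7b, known as Cezanne and a relative of A20 in the OTU family, had 19.9 to 22.8 and 20.8 to 26.3 CPM, with a log2 change of -0.18 (95% interval -0.43 to 0.08, adjusted p = 0.53). Over these 7 genes the 95% intervals reached from 0.726-fold to 1.35-fold, and changes within a gene's own interval were not excluded. The intervals are not limits of detection, because a call needed an adjusted p under 0.05 over all tested genes.

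**Figure D2:**
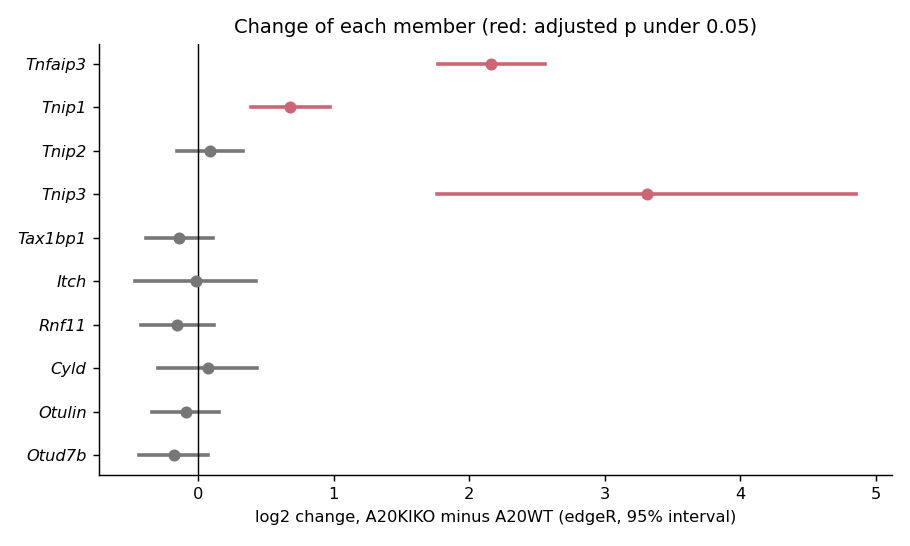
Log2 change of each gene, A20KIKO minus A20WT, as a point with its 95% interval from edgeR (n = 4 libraries a group), red where the adjusted p was under 0.05. Tnfaip3, Tnip1 and Tnip3 lie right of 0 at 2.16, 0.68 and 3.31, and the intervals of the other 7 genes cross 0.

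Levels were compared between genes after division by the length of their merged exons in GENCODE M21, as CPM per kb. In A20WT libraries the order from high to low was Rnf11 (48.0 ± 5.50 CPM per kb), Tax1bp1 (35.1 ± 3.79), Otulin (26.3 ± 2.16), Tnip2 (13.7 ± 0.522), Tnip1 (11.5 ± 1.77), Itch (3.21 ± 1.02), Otud7b (2.59 ± 0.25), Tnfaip3 (2.29 ± 0.367), Cyld (1.97 ± 0.469) and Tnip3 (0.126 ± 0.0881), each as mean ± SD with n = 4. The ranges of neighbours overlapped between Tnip2 and Tnip1 and from Itch through Otud7b and Tnfaip3 to Cyld, so the order within those runs was not resolved. Per exon length, Tnfaip3 was thus among the scarcer transcripts of the set in A20WT epidermis. In A20KIKO libraries Tnfaip3 stood at 10.2 ± 2.39 CPM per kb, apart from Tnip2 above it (14.5 ± 1.49) and from Itch below it (3.17 ± 0.238). Tnip1 stood at 18.5 ± 1.85 CPM per kb and its range overlapped that of Tnip2, while Tnip3 had the lowest mean, 1.25 ± 0.706, in a range that overlapped that of Cyld. The annotation release behind the counts is not given, and a transcript shorter than its merged exons, as can be the case for Tnip3 with 10916 bases, is placed too low.

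The length-scaled ratio of Tnfaip3 to Tnip1 was 0.654, 0.462, 0.503 and 0.576 in A20KIKO mice 1 to 4, and 0.199, 0.23, 0.215 and 0.156 in A20WT mice 1 to 4. The balance of the A20 transcript to that of its partner was thus higher in each A20KIKO library than in each A20WT library. The ratio was 2.75-fold higher in A20KIKO libraries (log2 difference 1.46, SE 0.16). In an exact two-sided permutation test of the 70 arrangements of 4 against 4 libraries this gave p = 0.0286, the smallest the design allows. The ratio of Tnfaip3 to each of the other members except Tnip3 did not overlap between the groups either. For Tnip3 it was 5.79 to 16.5 in A20KIKO and 10.2 to 45.3 in A20WT libraries, and these overlapped. Tnfaip3 itself rose with its groups apart, so its ratio to a gene that changed little is set apart as well. The separated ratios thus restate that rise, and their share over all genes was not computed.

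**Figure D3:**
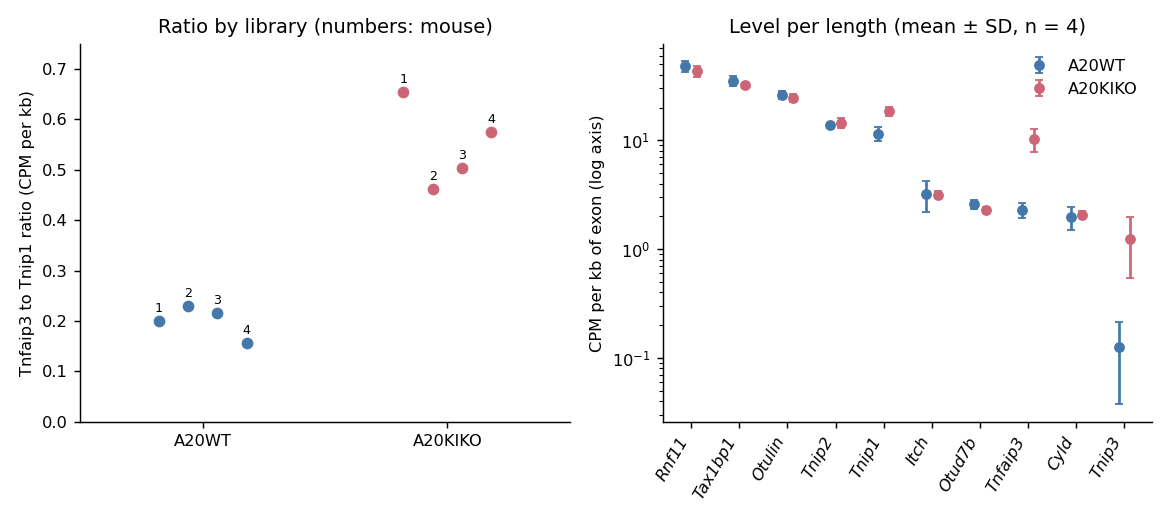
Left, length-scaled ratio of Tnfaip3 to Tnip1 in each library (linear axis from 0, mouse numbers beside points), at 0.156 to 0.23 in A20WT and 0.462 to 0.654 in A20KIKO mice. Right, CPM per kb of exon for the 10 genes (log axis, mean ± SD, n = 4), where Tnfaip3, Tnip1 and Tnip3 are set apart between the groups.

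Among marker lists of other cells, only that of monocytes and macrophages had a mean log2 level higher in each A20KIKO than each A20WT library. By summed CPM the list shared by leukocytes was apart as well, at 368 to 507 CPM in A20KIKO and 294 to 361 CPM in A20WT libraries. Of 9 tested of 12 monocyte and macrophage markers, 4 were higher (Ly6c2, C1qa, C1qb and C1qc) and 0 lower. This and the marker counts below stand beside 3.49% of all tested genes called and 2.43% called higher. The 4 called genes were scarce, with A20KIKO means of 1.90 to 7.61 CPM. The most abundant marker, Csf1r, was not called, at means of 80.1 CPM in A20KIKO and 61.7 CPM in A20WT libraries. The summed level of the 12 was 106 to 152 CPM in A20KIKO and 60.4 to 105 CPM in A20WT libraries, and none of the 12 was at 0 in all libraries. The mean log2 level of this list, set against the A20WT mean, ran from 0.93 to 2.45 among A20KIKO and from -0.32 to 0.39 among A20WT libraries. The genes were scaled otherwise, as the log2 of CPM over the mean A20WT CPM with no prior count. So scaled, Tnfaip3 was 2.46, 1.73, 1.95 and 2.38 in A20KIKO mice 1 to 4, and Tnip3 was 3.64, 1.88, 2.86 and 4.04. Mice 1 and 4 were the highest and mouse 2 the lowest A20KIKO library in all of these. Mice 1 and 4 were also the most deeply sequenced of the group, but mouse 2 had more counts than mouse 3 (58156350 and 40451075). With counts thinned to the smallest library, the same 3 genes were higher in A20KIKO libraries, a fit that does not address the order of the mice. The part of monocytes, macrophages or other cells in the rises of Tnfaip3, Tnip1 and Tnip3 was not tested. In a bulk sample more cells of a type and more RNA per cell cannot be told apart.

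Of 7 markers shared by leukocytes, 0 passed, with a summed level of 368 to 507 CPM in A20KIKO and 294 to 361 CPM in A20WT libraries. Of 9 Langerhans cell markers 1 was higher, the co-stimulatory gene Cd86 (edgeR adjusted p = 0.0188, and 0.0575 to 0.079 without A20KIKO mouse 1 or 4 or A20WT mouse 3), at summed levels of 3136 to 3481 and 2587 to 3435 CPM. Of 8 T cell markers 0 passed, at 141 to 147 and 129 to 165 CPM. Melanocyte markers (0 of 6) lay at 48.3 to 228 and 43.2 to 57.7 CPM, fibroblast markers (0 of 5 tested) at 15.3 to 36.7 and 39.7 to 55.3 CPM, and endothelial markers (0 of 3 tested) at 2.5 to 4.22 and 1.82 to 3.99 CPM. Neutrophil markers (0 of 3 tested passed, with Elane at 0 in all libraries) summed to 2931 CPM in A20KIKO mouse 4. They summed to 5.57 to 61.0 CPM in the other 7 libraries. S100a8 and S100a9, at 947 and 1899 CPM, made up most of the sum in A20KIKO mouse 4. Csf3r, Ly6g, Mpo, Retnlg and Camp had too few counts to be tested. Without A20KIKO mouse 4, Tnfaip3, Tnip1 and Tnip3 were still called higher, with log2 changes of 2.08, 0.62 and 2.96. Keratinocyte markers were abundant in every library. The 7 basal markers summed to 23140 to 28840 CPM in A20KIKO and 31370 to 41460 CPM in A20WT libraries, and the 7 suprabasal markers to 26130 to 36230 and 22860 to 33570 CPM. Of the basal markers 1 was lower, Krt5 itself, whose promoter drives the Cre (log2 change -0.83, SE 0.12, edgeR adjusted p = 0.00272).

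**Figure D4:**
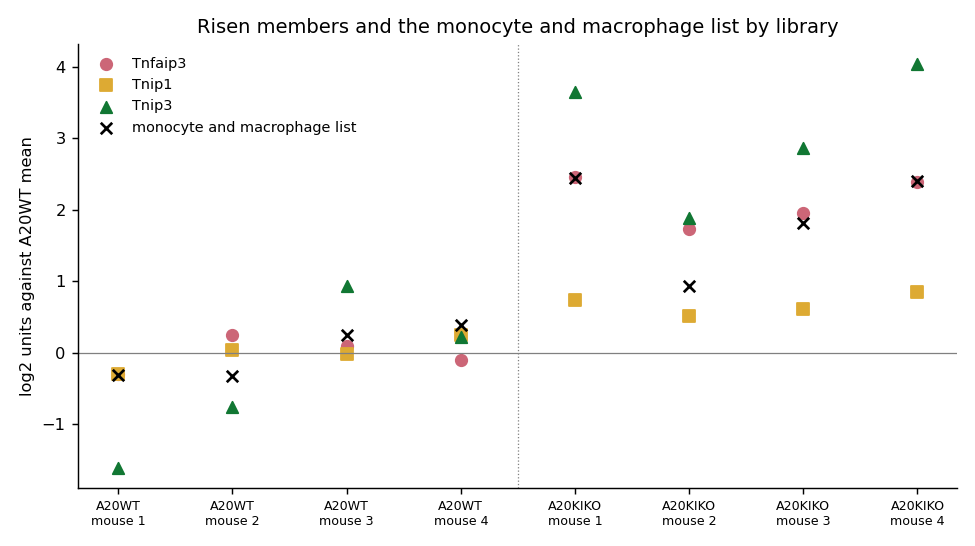
Log2 level of Tnfaip3, Tnip1 and Tnip3 and of the monocyte and macrophage marker list in each library, each against its A20WT mean (0). For the genes 0 is the mean A20WT CPM, and for the list it is the mean A20WT log2 level with a prior count of 2. In A20KIKO mouse 2 all 4 series are at their lowest of the group. The scales of genes and list differ, so the nearness of their points carries no meaning.

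The counts of the lists that follow stand beside 3.49% of all tested genes called and 2.43% called higher. Of 13 tested other OTU deubiquitinases, 1 was higher and 0 lower (median log2 change 0.04): Otud7a, the close relative of Otud7b, rose from 4.87 ± 1.95 to 10.9 ± 3.00 CPM (SD, n = 4 each, log2 change 1.16, SE 0.28, edgeR adjusted p = 0.0435). This call was lost without any single library except A20KIKO mouse 4 or A20WT mouse 1, with adjusted p of 0.0715 to 0.129, and in 6 of the 12 other settings tried. Of 23 genes of the TNF receptor ubiquitin machinery, including LUBAC, the TRAF proteins and the kinase RIPK1, 1 was higher and 0 lower (median 0.09). It was Birc3, an inhibitor of apoptosis with ubiquitin ligase activity, at 28.8 ± 3.03 and 48.8 ± 14.6 CPM (log2 change 0.76, SE 0.19, adjusted p = 0.0484). It lost its call when A20KIKO mouse 1, A20KIKO mouse 4 or an A20WT mouse was left out (adjusted p 0.0949 to 0.158) and in 7 of the 12 other settings. With 1 call each, neither list is read as differing from all tested genes.

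Of 14 NF-kB subunits, inhibitors and kinases, 3 were higher and 0 lower (2.43% higher over all tested genes), with a median log2 change of 0.45, 0.26 without A20KIKO mouse 4 and 0.29 over genes with 5 CPM in at least 4 libraries. The subunit Relb rose from 39.2 ± 2.72 to 73.5 ± 5.92 CPM (SD, n = 4 each, log2 change 0.90, SE 0.11, edgeR adjusted p = 0.00107) and Nfkb2 from 41.9 ± 8.71 to 75.2 ± 9.43 CPM (log2 change 0.84, adjusted p = 0.0119). Nfkbiz, a nuclear co-regulator, had 27.6 ± 7.78 and 63.5 ± 22.1 CPM (log2 change 1.20, adjusted p = 0.0218). This call was lost when A20WT mouse 1, 2 or 3 was left out (0.0525 to 0.143) and with no count filter. Of 19 other negative regulators of innate signalling, 3 were higher and 0 lower (again beside 2.43%), with a median log2 change of 0.09. These were the interferon-induced Usp18 (log2 change 4.05, adjusted p = 4.12e-05), Trim30a (4.02, adjusted p = 0.0137, 0.0753 to 0.0895 if A20WT mouse 1 or 2 was left out) and Nlrc5, a transactivator of MHC class I genes (0.80, adjusted p = 0.0383). The call of Nlrc5 was lost when A20KIKO mouse 1 or 4, or else A20WT mouse 3 or 4, was left out (0.0564 to 0.135) and in 3 of the 12 other settings, that of Trim30a in 3 of 11. By DESeq2 the OTU, TNF receptor, NF-kB and negative regulator lists held 2, 3, 6 and 4 higher genes. Those counts stand beside 729 higher of all 16512 genes tested by DESeq2, and not beside 2.43%.

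The genes whose profile was most like that of Tnfaip3 were ranked by the root mean square difference of log2 CPM over the 8 libraries, each profile centred on its own mean, among 10336 other genes whose mean reached 5 CPM. The nearest was Parp9, an ADP-ribosyltransferase-family gene, at 0.187 log2 units, with 46.3 to 115 CPM in A20KIKO and 13.5 to 21.1 CPM in A20WT libraries. Ifih1, which encodes the RNA sensor MDA5, followed at 0.215, the transcription factor gene Irf1 at 0.242, Ddx58, which encodes RIG-I, at 0.245, and the immunity-related GTPase gene Irgm1 at 0.252. Of the other members, Tnip1 stood at place 192 (0.755) and Tnip3 at place 829 (0.948), and the rest lay between places 2359 and 7892. None of the partners was thus among the 5 genes nearest to Tnfaip3. The measure includes the size of the change between the groups, so a gene with another fold change cannot rank near however alike its mice vary. This likeness is a description over 8 libraries in 2 groups and carries no test.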

How the data were processed

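RNA from ear epidermal sheets of 8 mice (4 A20KIKO, 4 A20WT) was copied to cDNA with the SMART-Seq v4 kit from poly-adenylated RNA, amplified by PCR and tagmented, per the labels' protocols. The kit keeps no strand and no molecular identifier, so reads carry no tag that marks PCR copies or tells antisense genes apart. Whether such reads were counted or dropped is not stated. The authors deposited raw, whole-number counts for Ensembl genes, in 2 lane columns per library, per the file headers. The submitters' processing notes name STAR 2.4.2a, Picard 1.139, HTSeq 0.6.1p1, GRCm38.p5 and GRCh38 with no role. No annotation release or counting option is stated in these sources. Lanes were summed. Libraries then held 70820780 counts on average, above the average of 22000000 reads that the labels state, so a count was not taken as an independent fragment.

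Of 51912 identifiers, 51633 matched a symbol and an exon length in GENCODE M21 on GRCm38. The main test was run with edgeR 4.0.16 (R 4.3.3): filterByExpr at its defaults (minimum count 10, minimum total 15) left 16512 genes, followed by TMM scaling and the robust quasi-likelihood test with no term but the group. Calls were made at a Benjamini-Hochberg adjusted p under 0.05 over all tested genes. CPM were scaled by TMM and are given as mean ± SD over mice. The SE of a log2 change comes from the test (its size over the root of F), and the 95% interval uses the test's degrees of freedom. Log2 levels of marker lists and the profiles compared with that of Tnfaip3 use a prior count of 2. Log2 levels of single genes against the A20WT mean use CPM with no prior count. Alternatives were other size factors, no or a stricter count filter, DESeq2 1.42.0, limma-voom (limma 3.58.1), non-robust dispersions, each lane alone, thinned counts, the replicate number as a block and each library left out. Python 3.11.15 with pandas 2.3.3 and Matplotlib 3.10.9 made the tables and plots.

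The members and gene lists were chosen with earlier results of these data known. All 10 members were named, and of each pathway list up to 3 called genes with the smallest adjusted p, or the 2 of highest mean where none was called, and the 5 genes most like Tnfaip3. Markers named beside them, Cd86 and the 4 monocyte and macrophage genes, were the called members of their lists and were named after their values were seen. Promoters were RefSeq sequences on GRCm38.p6.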

Additional observations from a re-analysis of the deposited data

How the results depend on the processing

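The rise of Tnfaip3 passed in each of the 20 alternatives, with log2 changes of 2.05 to 2.28 and adjusted p of at most 0.00126. Tnip1 lost its call in 2 of 20 alternatives and Tnip3 in 6, all of these with a library left out except for Tnip3 with no count filter. Their log2 changes ranged from 0.59 to 0.77 and from 2.96 to 3.85. The other 7 genes passed in none of the 20. Cyld (-0.08 to 0.17) and Itch (-0.20 to 0.14) changed sign among them, without a call. The number of members called was 1 to 3 with a library left out and below 3 in 6 of those 8 fits (Tnfaip3 alone without A20KIKO mouse 1), and 2 with no count filter. Over all genes the 576 calls became 348 to 619 with a library left out (348 without A20KIKO mouse 1, 355 without A20WT mouse 3), 374 where 5 CPM in at least 4 libraries were asked, which tests fewer genes, and 1133 by DESeq2, where the cause was not tested. With the replicate block 3 members and 551 genes were called. Same-numbered libraries are different mice whose deviations correlated at 0.04, 0.06, -0.01 and 0.24, so the numbers were not taken to pair them. For the ratio of Tnfaip3 to Tnip1 the block gave the log2 difference of 1.46 with an exact sign-flip p = 0.125, the smallest that 4 pairs allow. Leaving out a library gave log2 differences of 1.34 to 1.54, each with an exact permutation p = 0.0286. That p is the smallest possible there and was fixed in advance, because the groups do not overlap, so it is no check of stability. Size factors moved the median of all genes by at most 0.04 log2 units. With 4 mice a group and an SE of 0.11 to 0.20 for the genes that did not pass, modest changes were beyond reach.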

Other observations

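A20WT mouse 1 was the lowest of its group in 7 of the 10 genes and A20KIKO mouse 2 in 6 of them, whereas A20WT mouse 2 and A20KIKO mouse 4 were the highest of their group in 6 and 5. In A20WT mouse 1, Itch had 18.4 CPM and Cyld 16.7 CPM, against 28.5 to 40.6 CPM and 24.0 to 29.4 CPM in the other A20WT mice. This mouse had the deepest library, with 89624373 counts. Otulin went the other way and was highest in A20WT mouse 1, at 47.2 CPM.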
